A study of Mus musculus with 24 samples.

Results

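miR-31 is 1 of the 566 mouse miRNA probes of the nCounter panel, and it was taken by its probe name, mmu-miR-31, across all 24 libraries of the series. The study used the NanoString nCounter assay, which counts probes bound to single RNA molecules, on normal colon mucosa and colon tumours of mice from a pair of models. In the APC;CpC model, Cre recombinase that is active in colon epithelium targets the tumour suppressor gene Apc, and the labels give its samples the genotype APC. In the AOM-DSS model, mice receive the carcinogen azoxymethane and dextran sulphate sodium, which injures the colon and causes colitis. APC samples made up 6 normal and 5 tumour libraries, and AOM-DSS samples 7 normal and 6 tumour libraries. The sources used here do not give strain, age or doses. Nothing in them states that the libraries of a group came from separate animals, so the tests measure the spread between these libraries. The labels' protocols speak of fixed, embedded tissue and the design text of frozen tissue, and this difference could not be settled.

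A miRNA binds messenger RNAs mainly through its seed, the bases near its 5′ end, and lowers their translation and stability. The hairpin precursor is cut into a duplex, and the strand loaded into an Argonaute protein acts as the guide. miR-31 is known in colorectal cancer as a miRNA that is often raised in tumours, and in the mouse intestine it is known as a regulator of epithelial stem cells and of regeneration after injury.

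The older name on the panel corresponds to the 5p arm of the miR-31 hairpin, and the tables used held no probe named for the 3p arm. Both arms and the precursor are shown because they define what the probe counts. The sequences are from RefSeq (build GRCm38.p6), on the minus strand, at chr4:88910614-88910635 for miR-31-5p, chr4:88910577-88910599 for miR-31-3p and chr4:88910557-88910662 for the hairpin. Capitals mark the seed (bases 2 to 8) in the mature miRNAs and the mature arms in the hairpin.
miR-31-5p: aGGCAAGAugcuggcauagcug
miR-31-3p: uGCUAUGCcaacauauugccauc
miR-31 hairpin: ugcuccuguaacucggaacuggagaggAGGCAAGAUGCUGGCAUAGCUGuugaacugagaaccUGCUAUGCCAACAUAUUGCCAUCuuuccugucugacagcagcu

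The 5p arm takes bases 28 to 49 and the 3p arm bases 64 to 86 of the 106-base hairpin. Of the 1738 mature mouse miRNAs in the RefSeq table, 1, miR-31-5p itself, has this seed at bases 2 to 8, and the same holds for bases 2 to 7. In the annotation Mir31 lies within the span of the long non-coding RNA gene Gm49890 (chr4:88909854-88942042). The next protein-coding genes on either side are Ifne, an interferon gene, 30.4 kb away, and Mtap, a gene of methionine salvage, 226.7 kb away. The nearest other annotated miRNA gene, Mir491, lies 788.4 kb away.

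Total mouse miRNA counts ran from 47235 in AOM-DSS normal 7 and 134680 in APC tumour 1 to 329346. Levels are CPM, the mouse miRNA counts brought to a common library total after TMM scaling, which assumes that most miRNAs keep their share. The background of each library was set at the mean plus 2 SD of its 33 probes for viral miRNAs. Per the file headers there were 3 cartridges. The first held the 11 APC libraries, the second the 7 AOM-DSS normal libraries and AOM-DSS tumours 1 and 2, and the third AOM-DSS tumours 3 to 6. Model and cartridge can therefore not be told apart in any comparison between the models. The labelled epithelium was present: all 8 measured intestinal epithelium markers exceeded background in the median library of each group, and none had a count of 0 in any library.

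In normal mucosa miR-31 was scarce and lay close to background in both models. The 6 APC normal libraries ran from 231.9 to 322.1 CPM with a median of 263.2, and the mean was 273.3 ± 36.84 CPM (SD, n = 6). These values rested on 46 to 66 counts, which were 1.16 to 2.22 times the background of the same library. All 6 libraries exceeded background, but by a small margin. The 7 AOM-DSS normal libraries ran from 131.9 to 358.7 CPM with a median of 226.8, and the mean was 244.1 ± 74.34 CPM (SD, n = 7). The lowest, AOM-DSS normal 7, was also the shallowest library and held 5 miR-31 counts (95% Poisson interval 1.62 to 11.7, counting error only), below its background of 8.9 counts. The other 6 lay above background, and without library 7 the mean was 262.8 ± 60.8 CPM (n = 6).

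In tumours of both models miR-31 was far higher. The 5 APC tumours measured 2264, 9148, 9300, 8960 and 5743 CPM, from 492 to 3257 counts, and the mean was 7083 ± 3071 CPM (SD, n = 5). Libraries 2, 3 and 4 lay close together, library 5 was lower, and library 1 stood well below the others. The 6 AOM-DSS tumours ran from 1691 to 3288 CPM with a median of 2406, from 337 to 775 counts, and the mean was 2446 ± 642.4 CPM (SD, n = 6). All tumour libraries exceeded background, by 9.03 to 52.2 times in APC and by 7.16 to 20.1 times in AOM-DSS. As a share of all mouse miRNA counts, miR-31 took 0.0198 to 0.023% in APC mucosa and 0.365 to 1.24% in APC tumours. In AOM-DSS tissue the share was 0.0106 to 0.0305% in mucosa and 0.174 to 0.397% in tumours.

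**Figure D1:**
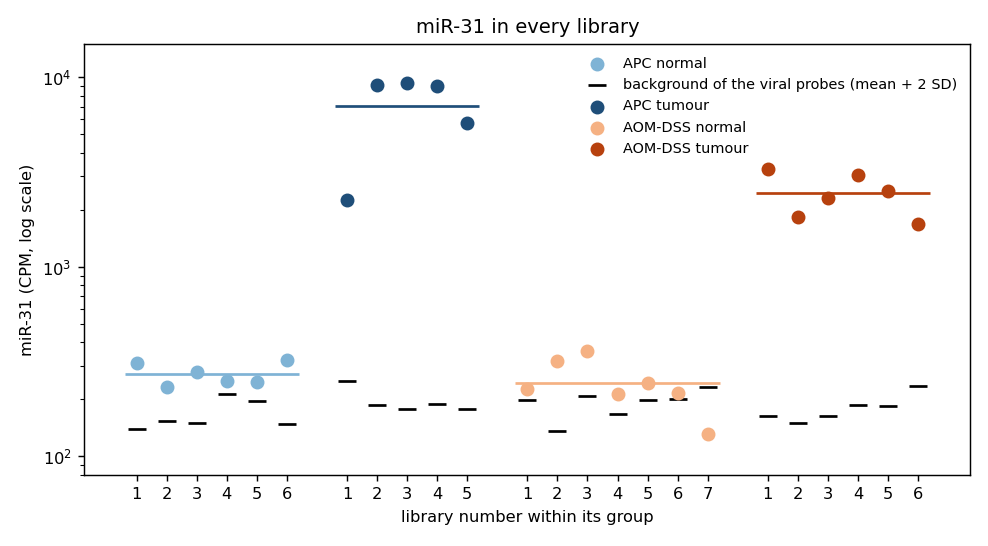
miR-31 in CPM on a log axis for each library, by group, with coloured lines at the group means and black dashes at each library's background from the viral probes. Normal libraries sit between 131.9 and 358.7 CPM near the dashes, and every tumour lies above every normal library of its model.

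The first comparison measured the tumour change in the genetic model. miR-31 was higher in all 5 tumours than in all 6 normal libraries, and the lowest tumour exceeded the highest normal library 7.03-fold. Such a complete separation with tumours above was found for 24 of 563 tested miRNAs, or 4.26%. Against the mean of the normal libraries, the 5 tumours were 8.28 to 34.0 times as high, and the ratio of the means was 25.9. The rise was 4.70 ± 0.29 on the log2 scale (SE, adjusted p = 5.45e-13, edgeR quasi-likelihood test). At this threshold 123 of 563 miRNAs (21.8%) changed, 52 upwards (9.24%) and 71 downwards (12.6%). This split depends on the scaling: with the miR-200 family as reference 68 rose and 45 fell, and with the authors' scaled signal 84 rose and 42 fell (limma). The exact two-sided permutation test on log2 CPM gave p = 0.00216, the smallest that 462 arrangements allow (0.00433 adjusted over 4 tests). By fitted fold miR-31 ranked 1 among the tested miRNAs, followed by miR-135b (8.37-fold) and miR-205 (6.11-fold). miR-135b was at or below background in all 6 normal libraries, so its fold has no measured base and its rank against miR-31 is not settled.

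The second comparison measured the change in the chemical and inflammatory model. All 6 tumours lay above all 7 normal libraries, and the lowest tumour exceeded the highest normal library 4.71-fold. Tumours lay entirely above normal libraries for 22 miRNAs, or 3.91%. Against the normal mean the 6 tumours were 6.93 to 13.5 times as high. The rise was 3.27 ± 0.26 on the log2 scale (SE, 9.63-fold, adjusted p = 3.35e-10, edgeR). Here 96 of 563 miRNAs (17.1%) changed, 48 in each direction (8.53% each). Here too the split moves with the scaling: with the 4 mRNA probes as reference 10 rose and 111 fell, with the miR-200 family 18 rose and 95 fell, and with miR-720, muscle and stroma miRNAs left out 36 rose and 59 fell. The rise of miR-31 passed under each of these, at 2.82 with the mRNA probes, which shift the median of all miRNAs by -0.40. The exact two-sided permutation test gave p = 0.000583, the smallest that 1716 arrangements allow (0.00233 adjusted over 4 tests). miR-31 again ranked 1 by fitted fold, before miR-135b (4.19-fold) and miR-183 (2.95-fold), with the same limit for miR-135b. The size of the rise also depends on how background is treated. With the viral background subtracted it was 4.21, and 3.85 without AOM-DSS normal 7, a setting chosen after seeing the data (limma).

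The AOM-DSS tumours came from both of that model's cartridges. Libraries 1 and 2, which shared the cartridge of the normal libraries, averaged 2557 CPM (3288 and 1826), and the 4 libraries of the third cartridge averaged 2391 CPM (1691 to 3060). Their log2 differences from the normal mean were 3.34 and 3.27. Within the shared cartridge alone, the exact two-sided permutation test gave p = 0.0278, the smallest that 36 arrangements allow.

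**Figure D2:**
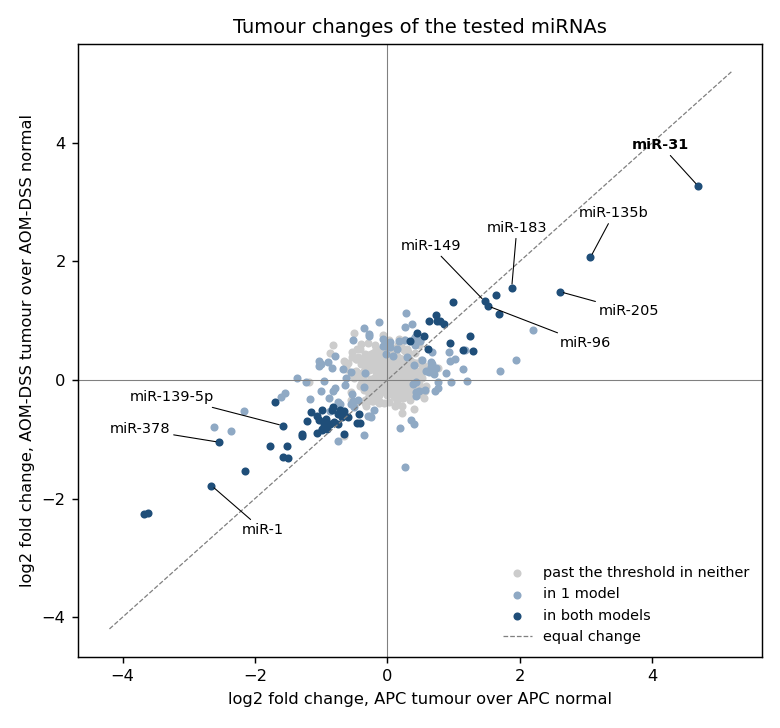
Log2 fold change of each of the 563 tested miRNAs in APC tumours (x axis) and AOM-DSS tumours (y axis), each over normal mucosa of its model, coloured by whether the edgeR adjusted p was under 0.05 in neither, 1 or both models. miR-31 lies at the far upper right, at 4.70 and 3.27, below the dashed line of equal change.

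The size of the tumour change differed between the models. The difference of the effects, AOM-DSS minus APC, was -1.43 ± 0.36 on the log2 scale (SE, 95% interval -2.14 to -0.72, adjusted p = 0.0162, edgeR), a 2.7-fold smaller rise in AOM-DSS tumours (interval from the SE by normal approximation, as in the following). A difference of either sign passed for 38 of 563 miRNAs (6.75%), and 16 (2.84%) passed with the sign of miR-31. How common that sign was depended on the scaling. With the mRNA probes 31 of 33 calls had it, and with the miR-200 family 61 of 65. With RLE scaling 17 of 37 calls had it, and with miR-720, muscle and stroma miRNAs left out 16 of 35. Between normal mucosae, AOM-DSS minus APC was -0.10 ± 0.26 (95% interval -0.62 to 0.42, adjusted p = 0.911, edgeR), and the exact permutation p was 0.338, in a comparison where 3.37% of miRNAs passed. The sign of this small value turned with miR-200 scaling (0.31, adjusted p = 0.397, edgeR). Between tumours, AOM-DSS minus APC was -1.53 ± 0.25 (2.9-fold lower, adjusted p = 0.00016, edgeR), where 8.7% of miRNAs passed, 3.91% with this sign. With the mRNA probes as reference, 63 of 65 calls had this sign. The exact two-sided permutation test gave p = 0.013 (0.0173 adjusted over 4 tests). With the viral background subtracted the value was -1.44 (adjusted p = 0.0802, limma), where the median over all miRNAs was 0.41, against 0.06 as reported.

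The tumour groups did overlap. Of the 5 APC tumours, 4 lay above all 6 AOM-DSS tumours, and APC tumour 1, at 2264 CPM, lay inside their range. The order of the 4 groups by mean was APC tumour, AOM-DSS tumour, APC normal and AOM-DSS normal, and the last pair did not differ beyond its spread. The difference of the effects was -2.03 with the mRNA probes as reference, where the median difference over all miRNAs was -0.46, against 0.06 as reported. The difference of miR-31 missed the threshold in 3 of 36 alternatives. Of these 36, 24 left out single libraries and all passed, and of the 12 others 9 passed. Among the 9 are 2 settings chosen after seeing the data. With the viral background subtracted the difference was -0.91 (adjusted p = 0.533, limma), in a setting where the median over all miRNAs was 0.48. With the third cartridge as a term it was -1.37 (adjusted p = 0.0986, edgeR) and with the first and second cartridges only -1.39 (adjusted p = 0.0848, edgeR). With the background subtracted, the shallow AOM-DSS normal 7 carried weight: without it the value was -1.27 (adjusted p = 0.0419, limma), a setting chosen after seeing the data.

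**Figure D3:**
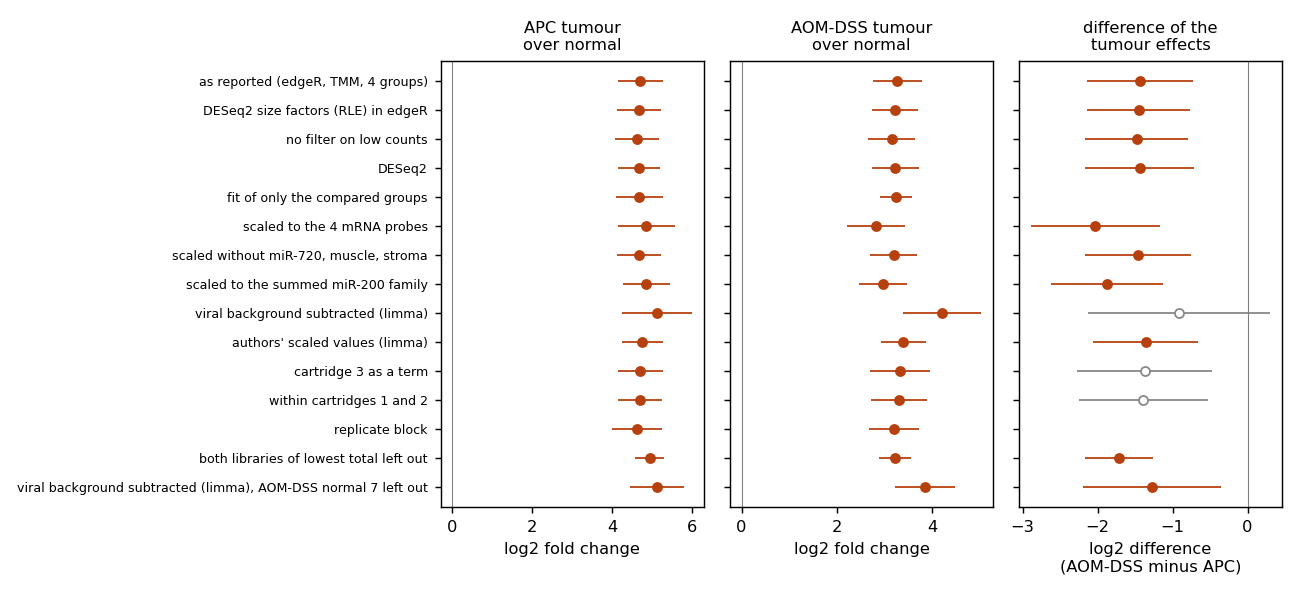
Log2 fold change of miR-31 with its 95% interval (normal approximation), as reported and under each alternative other than leaving out single libraries, for the tumour change in APC, in AOM-DSS and for their difference. Filled points have an adjusted p under 0.05 and open grey points do not. Both tumour changes stay above 0 throughout, from 4.62 to 5.12 and from 2.82 to 4.21, and 3 points of the difference are open.

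Among APC tumours miR-31 varied more than most miRNAs did. Its SD on the log2 scale was 0.87, against a median SD of 0.31 over the 176 miRNAs above background there, 14 of which had a larger SD. The lowest value belonged to APC tumour 1, and without it the mean was 8288 ± 1702 CPM (n = 4) with a log2 SD of 0.34. That library also had the lowest miR-21 of the group, 58950 CPM against a group median of 111200, and the lowest miR-203, 828.4 CPM against 3194. It had the second lowest total count of all libraries. Its TMM factor, 1.613, was the highest of all libraries and lowers every CPM of that library. As a share of mouse miRNA counts, without that factor, its miR-31 was also the lowest of the group (0.365%). The parts of depth and scaling in these values were not tested. In APC mucosa miR-31 had an SD of 0.19 against a median of 0.27, and 154 of 191 miRNAs varied more. In AOM-DSS tissue the SD was 0.45 in mucosa (median miRNA 0.25) and 0.38 in tumours (median miRNA 0.22). Without APC tumour 1 the log2 change in APC tumours was 4.93 and the difference between the models -1.66.

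The miRNAs with the pattern most like miR-31 were found by Pearson's r of log2 CPM over the 24 libraries, among 220 other miRNAs above background in the median library of at least 1 group. These points share libraries and scaling, and they fall into tumours and normal mucosa, so r is a description and carries no test. The median r over the 220 was -0.01. The 5 highest were miR-96 (0.96), miR-135b (0.96), miR-183 (0.94), miR-149 (0.90) and miR-205 (0.90). All 5 rose in tumours of both models, a direction that their choice by r over tumour and normal libraries largely fixes in advance. miR-96 and miR-183 come from 1 precursor cluster known for its expression in sensory cells and in many carcinomas. miR-96 measured 1938 ± 212.4 and 5534 ± 1364 CPM in APC mucosa and tumours, and 2045 ± 331.9 and 4848 ± 565.4 CPM in AOM-DSS mucosa and tumours. It rose by 1.52 ± 0.15 and 1.25 ± 0.14 on the log2 scale (adjusted p = 1.77e-10 and 4.93e-09, edgeR). Its difference between the models, -0.27 ± 0.20, did not pass (adjusted p = 0.499, edgeR).

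miR-135b, which can repress Apc by binding its messenger RNA, measured 657.4 ± 95.19 CPM in APC tumours (n = 5) and 299.7 ± 45.65 CPM in AOM-DSS tumours (n = 6). It exceeded background in no normal library and in all tumours. With both normal groups at background, the difference of its rises between the models has no measured base. miR-205, a miRNA of squamous and basal epithelia, measured 1872 ± 663.8 CPM in APC mucosa and 11460 ± 3921 CPM in APC tumours. In AOM-DSS tissue it measured 1401 ± 314.6 and 3956 ± 2136 CPM. The rises were 2.61 ± 0.32 and 1.49 ± 0.29 (adjusted p = 1.24e-06 and 0.000678, edgeR), and their difference of -1.12 ± 0.43 did not pass (adjusted p = 0.13, edgeR). miR-149 stayed at or below background in every normal library and exceeded it in 4 of 5 APC and 4 of 6 AOM-DSS tumours, with fitted rises of 1.47 ± 0.18 and 1.33 ± 0.17.

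The 4 of these miRNAs whose 5p arm stands in the RefSeq table (GRCm38.p6) are shown with their seeds in capitals to set them beside the seed of miR-31-5p. None has the base of miR-31-5p at any of the 7 seed positions.
miR-96-5p: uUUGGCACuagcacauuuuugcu
miR-183-5p: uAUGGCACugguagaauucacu
miR-149-5p: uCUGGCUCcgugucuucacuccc
miR-205-5p: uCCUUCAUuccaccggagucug

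The 3 lowest correlations belonged to miR-139-5p (-0.94), miR-378 (-0.92) and the muscle miRNA miR-1 (-0.92). Their fall in tumours also follows largely from this choice. miR-1 exceeded background in 0 of 5 APC and 2 of 6 AOM-DSS tumours, so most of its tumour values are at background. miR-139-5p, known as a growth-limiting miRNA in colorectal cancer, measured 873.4 ± 103.3 and 293.2 ± 77.37 CPM in APC mucosa and tumours, and 733.3 ± 129.3 and 420.8 ± 52.23 CPM in AOM-DSS. Its log2 changes were -1.58 ± 0.17 and -0.77 ± 0.15 (adjusted p = 8.53e-10 and 0.000218, edgeR). miR-378, made from an intron of a gene of mitochondrial metabolism, fell in both, with log2 changes of -2.54 ± 0.18 and -1.05 ± 0.16 (adjusted p = 4.61e-14 and 2.9e-06, edgeR).

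**Figure D4:**
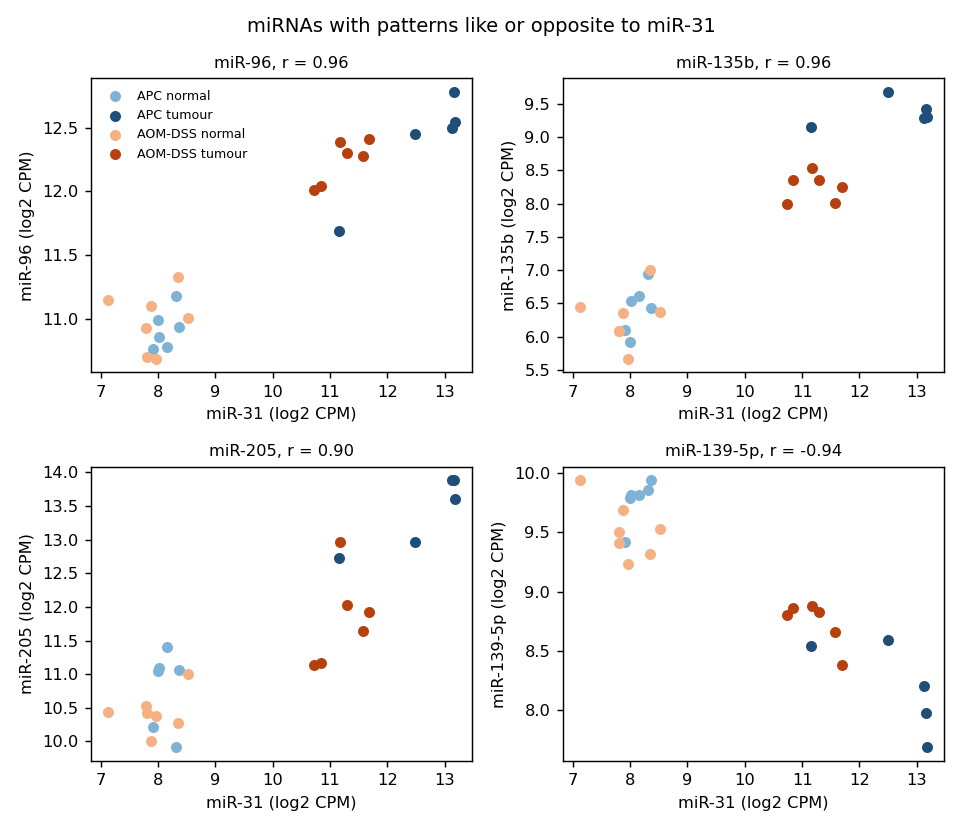
Log2 CPM of miR-96, miR-135b, miR-205 and miR-139-5p (y axes) against that of miR-31 (x axis) in the 24 libraries, coloured by group. Points fall into a normal and a tumour cloud, with r of 0.96, 0.96, 0.90 and -0.94.

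Within groups, other miRNAs came first. Over deviations from the group means, miR-24 (0.82), miR-23b (0.82) and miR-99b (0.81) had the highest r with miR-31, against a median of 0.19. Without APC tumour 1 these became 0.58, 0.64 and 0.54, and their ranks 6, 2 and 9, so their place as the 3 highest rests on that library. miR-24 and miR-23b, which can be made from 1 precursor, did not pass in either tumour comparison, with log2 changes between -0.06 and 0.03. miR-99b rose in APC tumours by 0.89 ± 0.17 (adjusted p = 7.32e-05, edgeR) and measured 1266 ± 134.0 and 1382 ± 73.3 CPM in AOM-DSS mucosa and tumours. For miR-96, miR-135b, miR-183, miR-149 and miR-205 the r of deviations was 0.69, 0.21, 0.38, 0.20 and 0.45. Without APC tumour 1 it was 0.38, 0.13, 0.33, -0.10 and 0.34.

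Other miRNAs often reported as raised in colorectal tumours were followed as a list of 19, miR-31 left out. In APC tumours 12 rose (9.24% of all tested miRNAs did), none fell and 7 did not pass, and the median log2 change was 0.63 against 0.04 over all tested miRNAs. In AOM-DSS tumours 13 rose (8.53% of all), none fell and 6 did not pass, with a median of 0.94 against 0.07. Under the 4 other scalings 9 to 14 rose in APC tumours and none fell, and 7 to 13 rose in AOM-DSS tumours, where 3 fell with the mRNA probes or the miR-200 family as reference. Beside miR-135b, miR-183 and miR-96, the risers in both models included the probe for miR-106a and miR-17, growth-promoting miRNAs of the miR-17 family, which rose by 0.79 ± 0.14 and 0.99 ± 0.13. miR-25, from a paralogous cluster, rose by 0.73 ± 0.13 and 1.09 ± 0.12. For the difference between the models, 1 of the 19 passed upwards (miR-18a, 0.85 ± 0.24, adjusted p = 0.0232, edgeR), 1 downwards (miR-135b, whose normal levels were at background) and 17 did not pass. miR-21, a growth-promoting miRNA raised in many cancers, rose by 0.43 ± 0.15 in APC tumours (adjusted p = 0.0409, edgeR) and measured 96590 ± 14980 and 94810 ± 11520 CPM in AOM-DSS mucosa and tumours.

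Of the 3 other miRNAs of the epidermal and squamous list, all rose in APC tumours and 2 in AOM-DSS tumours, where 9.24% and 8.53% of all tested miRNAs rose. miR-203, which promotes keratinocyte differentiation, rose by 0.86 ± 0.24 and 0.94 ± 0.22 on the log2 scale (adjusted p = 0.00723 and 0.0022, edgeR). miR-184 passed in APC tumours (adjusted p = 0.0114, edgeR) but exceeded background in 0 of 6 normal and 3 of 5 tumour libraries, so the size of its rise is not measured. It measured 162.0 ± 47.91 and 187.1 ± 52.86 CPM in AOM-DSS mucosa and tumours, near background. In the difference between the models none of the 3 passed. With the mRNA probes as reference, 2 rose in APC tumours and none passed in AOM-DSS tumours.

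Of 9 other miRNAs induced by inflammatory signals, 3 rose, 1 fell and 5 did not pass in APC tumours, and 1 rose, 1 fell and 7 did not pass in AOM-DSS tumours. Over all tested miRNAs 9.24% rose and 12.6% fell in APC tumours and 8.53% each in AOM-DSS tumours, and the AOM-DSS counts of the list lie near these shares. With the mRNA probes or the miR-200 family as reference, 5 of the 9 fell in AOM-DSS tumours and none rose. The number that rose in APC tumours was 1 to 5 over all settings tried for the lists. It was 1 with RLE scaling and with miR-720, muscle and stroma miRNAs left out, so the APC calls of miR-21, miR-223 and miR-132 did not all hold. miR-223, a miRNA of neutrophils and other myeloid cells, rose in both (1.25 ± 0.25 and 0.74 ± 0.22, adjusted p = 0.000257 and 0.0199, edgeR). miR-146b, a feedback inhibitor of Toll-like receptor signalling, fell in both (-1.06 ± 0.21 and -0.90 ± 0.20, adjusted p = 0.00017 and 0.00106, edgeR). miR-132 rose in APC tumours by 0.39 ± 0.13 (adjusted p = 0.0255, edgeR). In AOM-DSS tumours its log2 change was -0.06 ± 0.12 (adjusted p = 0.823, edgeR). miR-155, induced in activated lymphocytes and macrophages, measured 419.6 ± 49.87 and 511.7 ± 160.8 CPM in APC mucosa and tumours and did not pass in either model.

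Markers of muscle fell in the tumours of both models. Of 5 muscle miRNAs, 4 fell and 1 did not pass in each model, and none rose, under any of the 5 scalings. In APC tumours 0 of 5 libraries exceeded background for miR-1 and for miR-133a. In AOM-DSS tumours 2 of 6 did for miR-1 and 1 of 6 for miR-133a, so the size of these falls is not measured. Of all tested miRNAs, 12.6% fell in APC and 8.53% in AOM-DSS tumours. The summed level of the 5 muscle miRNAs was 172000 to 340300 CPM in APC mucosa and 10380 to 24400 CPM in APC tumours. In AOM-DSS tissue it was 146700 to 184600 CPM in mucosa and 14990 to 48060 CPM in tumours. miR-143 and miR-145, abundant in smooth muscle and fibroblasts, together took 18.93 ± 3.936% and 2.368 ± 0.5356% of mouse miRNA counts in APC mucosa and tumours, and 14.74 ± 1.205% and 3.642 ± 1.158% in AOM-DSS. No marker had a count of 0 in any library. Their part in the change of miR-31 was not tested directly, and in bulk tissue fewer cells of a type and less RNA per cell cannot be told apart. With muscle and stroma miRNAs and miR-720 left out of the scaling, the changes of miR-31 still passed in both models. That setting alters only the scaling, so it cannot measure the part of muscle content.

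Epithelial miRNAs fell in part in APC tumours. Of 8 intestinal epithelium markers, 1 rose, 5 fell and 2 did not pass in APC tumours, and 2 rose, 1 fell and 5 did not pass in AOM-DSS tumours. The shares of all tested miRNAs that rose and fell were 9.24% and 12.6% in APC and 8.53% each in AOM-DSS tumours, and 1 of 8 falling in AOM-DSS is near that share. With RLE scaling, the mRNA probes, or miR-720, muscle and stroma miRNAs left out, none rose and 3 or 4 fell in APC tumours. In AOM-DSS tumours 0 or 1 rose and 1 to 4 fell under these. With the miR-200 family as reference, 2 rose and 4 fell in APC tumours, and 1 rose and 4 fell in AOM-DSS tumours. The members of that family are themselves among the markers, so this reference constrains their counts in advance. Their summed level was 97440 to 133000 CPM in APC mucosa and 66300 to 84220 CPM in APC tumours. In AOM-DSS tissue it was 72980 to 109700 CPM in mucosa and 82780 to 105600 CPM in tumours. miR-194 and miR-192, made in the differentiated epithelium of the gut, fell in APC tumours, with log2 changes of -1.7 ± 0.15 and -1.61 ± 0.16 (adjusted p = 3.42e-12 and 2.35e-10, edgeR). In AOM-DSS tumours miR-194 fell by 0.37 ± 0.13 (adjusted p = 0.0436, edgeR), and miR-192 did not pass (-0.28 ± 0.14, adjusted p = 0.208, edgeR). The member that rose in APC tumours was miR-200c (0.35 ± 0.13, adjusted p = 0.041, edgeR), which rose in AOM-DSS tumours too (0.66 ± 0.12, adjusted p = 4.43e-05, edgeR). The APC call of miR-200c was lost with RLE scaling, with the mRNA probes and with miR-720, muscle and stroma miRNAs left out. With the mRNA probes its AOM-DSS call was lost too. miR-375, a miRNA of endocrine cells, fell in APC tumours (-2.16 ± 0.25, adjusted p = 1.07e-07, edgeR). In AOM-DSS tumours miR-375 did not pass (-0.53 ± 0.22, adjusted p = 0.112, edgeR).

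Relative to the sum of the miR-200 family, which is expressed in epithelium, miR-31 amounted to 0.4132 ± 0.03321% in APC mucosa and 11.9 ± 5.011% in APC tumours (n = 6 and 5). In AOM-DSS tissue it amounted to 0.492 ± 0.1636% in mucosa and 4.023 ± 1.22% in tumours (n = 7 and 6). The groups did not overlap on this scale. The highest mucosa value was 0.461% in APC and 0.729% in AOM-DSS, and the lowest tumour values were 4.36% and 2.59%. How many other miRNAs separate on this scale was not counted. In CPM, tumours lay entirely above normal libraries for 4.26% of tested miRNAs in APC and 3.91% in AOM-DSS. The miR-200 sum itself was lower in APC tumours than in mucosa (58660 ± 4349 and 66220 ± 7709 CPM). It was higher in AOM-DSS tumours (61660 ± 5677 and 50630 ± 7629 CPM), so the sum moves these ratios in opposite directions.

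Among markers of other cells, 2 of 7 fibroblast and mesenchyme miRNAs rose and 1 fell in APC tumours, and 1 rose and 2 fell in AOM-DSS tumours. Beside these counts, and those of the leukocyte, endothelial and erythrocyte lists, stand the shares over all tested miRNAs, 9.24% up and 12.6% down in APC and 8.53% each in AOM-DSS tumours. With the miR-200 family as reference, 4 fibroblast and mesenchyme miRNAs rose and 1 fell in APC tumours, and none rose and 4 fell in AOM-DSS tumours, where the mRNA probes gave none and 5. miR-99a rose in APC tumours (1.3 ± 0.17, adjusted p = 1.35e-07, edgeR). Its call in AOM-DSS tumours (0.49 ± 0.16, adjusted p = 0.0269, edgeR) was lost under each of the 4 other scalings. Of the list, miR-125b-5p and miR-100, transcribed from 1 cluster, fell in AOM-DSS tumours (-0.81 ± 0.14 and -0.67 ± 0.15). The summed level of the list was 22360 to 36400 CPM in APC mucosa, 26700 to 42080 CPM in APC tumours, 29780 to 37610 CPM in AOM-DSS mucosa and 18400 to 28110 CPM in AOM-DSS tumours. Of 7 leukocyte miRNAs, 1 rose and 1 fell in APC tumours and 1 rose in AOM-DSS tumours, and the riser in both was miR-223. The member that fell in APC tumours was miR-142-5p (-0.88 ± 0.14, adjusted p = 3.6e-06, edgeR). In AOM-DSS tumours miR-142-5p did not pass (-0.31 ± 0.13, adjusted p = 0.0829, edgeR). The leukocyte counts lie near the shares over all miRNAs. In AOM-DSS tumours none of the 7 rose and 3 fell with the mRNA probes, and none rose and 2 fell with the miR-200 family as reference. Of 2 endothelial probes, miR-126-3p rose in APC tumours (0.43 ± 0.12, adjusted p = 0.00859, edgeR) and none passed in AOM-DSS tumours. With the mRNA probes as reference none passed in APC tumours, and with those or the miR-200 family both fell in AOM-DSS tumours. Of 3 erythrocyte miRNAs, miR-486 passed as lower in APC tumours (adjusted p = 0.00676, edgeR), but it exceeded background in 2 of 6 normal and 0 of 5 tumour libraries, so no size is given, and none passed in AOM-DSS tumours. Their part in the change of miR-31 was not tested.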

How the data were processed

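miRNAs were counted with the NanoString nCounter assay in 24 libraries. The authors deposited raw counts per probe, and a second table holds a scaled signal deposited by the authors, each count times 1 factor per library. Of its 14376 values, 100% gave whole counts within 0.01. Raw columns name the group, and library numbers come from the deposited value table, each column of which was proportional to 1 raw column within a relative spread of 0.001. Columns of other series numbered 0. For the software, any background step and the basis of the factors, nothing was stated (not given in the sources used here). Per the labels' protocols RNA was handled by a core facility after NanoString's protocol.

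edgeR 4.0.16 (R 4.3.3) was run on the raw counts of mouse miRNAs: filterByExpr (min.count 10, min.total.count 15) kept 563 and removed 3. With TMM scaling, 1 robust quasi-likelihood model covered the 4 groups. The Benjamini-Hochberg adjustment ran over the 563 miRNAs, with a threshold of 0.05. A prior count of 2 entered log2 CPM. Exact two-sided permutation tests over libraries accompany miR-31. The script recovered the changes placed in simulated counts. These were split evenly between rises and falls, so the recovery does not test the scaling. Counts of libraries within a group differed by more than counting noise (chi-square per degree of freedom of at least 3.3), so none was treated as 1 library deposited again. This does not show that they came from separate animals.

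miR-31 and the lists were chosen with earlier results of these data known. Named besides miR-31 were the 5 miRNAs of highest and the 3 of lowest correlation with it, the 3 of highest correlation within groups, the 3 largest rises of each tumour comparison and up to 4 members of each list with the smallest p. Alternatives were other scalings (RLE, the 4 mRNA probes, the miR-200 family, totals without miR-720, muscle and stroma miRNAs), no filter, DESeq2 1.42.0, subtraction of the viral background and the authors' scaled signal with limma 3.58.1 (log2 of the deposited values plus 1), cartridge terms, a replicate block, fits of the compared groups only and each library left out. The lists were recounted under the scalings, and without both shallowest libraries, after the data were seen. The counts limit precision most in normal mucosa.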

Additional observations from a re-analysis of the deposited data

Results flagged for a closer look

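The change of miR-31 between tumour and normal mucosa differed between the models, by -1.43 ± 0.36 on the log2 scale (AOM-DSS minus APC, adjusted p = 0.0162, edgeR). This result stands here because the difference itself passed its test: miR-31 rose by 4.70 in APC and by 3.27 in AOM-DSS tumours. Of the 5 APC tumours, 4 lay above all 6 AOM-DSS tumours. All APC libraries ran on 1 cartridge and all AOM-DSS libraries on others, so model and cartridge cannot be told apart. No library stood apart from its group by Dixon's test at the 95% level, and APC tumour 1 came nearest, with a gap of 0.659 of the group's range on the log2 scale against a critical value of 0.71.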

How the results depend on the processing

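The tumour rise of miR-31 passed in all 38 alternatives of each model, 2 of them chosen after seeing the data. The log2 values were 4.58 to 5.12 in APC and 2.82 to 4.21 in AOM-DSS. With single libraries left out they ran from 4.58 to 4.93 and from 3.14 to 3.38, the difference between models from -1.66 to -1.31, normals from -0.21 to -0.02 and tumours from -1.76 to -1.42. The difference between models lost its call with the background subtracted (-0.91, with a median of 0.48 over all miRNAs). It also did with cartridge 3 as a term (-1.37) and within cartridges 1 and 2 (-1.39), where fewer tumours remain. It passed in the other 33 of 36, of which 24 left out single libraries and 2 were chosen after seeing the data. The tumour comparison lost its call with the background subtracted (-1.44, adjusted p = 0.0802, limma), where the median over all miRNAs was 0.41. The comparison of normals turned to 0.31 (adjusted p = 0.397, edgeR) with miR-200 scaling, which shifts the median of all miRNAs by 0.40, and passed nowhere.

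Calls over all miRNAs in APC tumours were 74 with mRNA scaling, and 109 to 132 with single libraries left out. In AOM-DSS tumours they were 52 with background subtracted, 60 with the cartridge term, 58 within cartridges 1 and 2, and 78 to 109 with libraries left out. For the difference they were 65, 15, 18 and 17 (miR-200 scaling, background, cartridge term, cartridges 1 and 2), and 30 to 57 with libraries left out (57 without APC tumour 1). For normals they were 4, 138 and 3 (mRNA, miR-200, background) and 8 to 21, with 8 to 12 when any of APC normal 3 and 4, APC tumour 4, AOM-DSS normal 1, 2, 4 and 5 or AOM-DSS tumour 3 and 5 was left out. For tumours they were 27, 32, 16 and 10 (background, authors' signal, cartridge term, cartridges 1 and 2) and 28 to 52, with 28 to 31 without APC tumour 2, 3 or 4. Chosen after seeing the data, leaving out both shallowest libraries gave 59 (difference) and 29 (normals), and background subtraction without AOM-DSS normal 7 gave 208, 185, 174, 127 and 32 in the order above. The causes were not tested.

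The level of miR-31 moved to 411, 10300, 370 and 3520 CPM (APC normal, APC tumour, AOM-DSS normal, AOM-DSS tumour) with totals without miR-720, muscle and stroma miRNAs, and to 182 and 147 CPM in the normals with background subtracted. Spearman's rho with miR-31 was 0.88 for miR-96, 0.89 for miR-135b, 0.83 for miR-183, 0.76 for miR-149, -0.80 for miR-139-5p, -0.75 for miR-378 and -0.78 for miR-1. By rho, 3 of the 5 highest and 1 of the 3 lowest by r kept that place.

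Libraries of the same number did not deviate together (correlations of -0.341 to -0.012 in APC and -0.077 to 0.125 in AOM-DSS). Tissues of the same animal need not deviate together, so this cannot decide whether libraries of the same number came from the same animal. With the number as a replicate block, the rises were 4.62 ± 0.32 and 3.2 ± 0.27, with 100 and 90 miRNAs called.

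Depth limits the normals most: 46 to 66 counts of miR-31 in APC mucosa and 5 to 92 in AOM-DSS mucosa lie near background, so folds over normal may be understated.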
